A study of Homo sapiens with 6 samples.

Results

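A set of 9 genes of the tight junction and of the apical polarity complex was followed in A549 cells depleted of BAP18. They are *PRKCI*, *PARD3* and *PARD6B* of the PAR polarity complex, *TJP1* of the junction plaque, the membrane proteins *OCLN* and *F11R*, and the claudins *CLDN1*, *CLDN2* and *CLDN12*. They were taken by symbol from the deposited table, where they are 9 of 35474 genes, and they were chosen with the difference between the groups already known, so their differences are described here without a p-value. A549 is a human lung adenocarcinoma line with epithelial features. BAP18, listed as *C17orf49*, is a chromatin reader protein that the study linked to growth of non-small cell lung cancer. All 6 cultures were transfected with siRNA and collected at 48 h, 3 with a non-targeting siRNA (siCtrl) and 3 with an siRNA against BAP18 (siBAP18). No untransfected cells were part of the comparison, and the paper does not say which of its 3 BAP18 siRNAs the sequenced cultures received. RNA was extracted with TRIzol and enriched for poly(A) RNA.

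Tight junctions seal the space between epithelial cells at the apical end of their lateral membranes. Claudins form the paracellular strands and set which ions pass, occludin and the JAM proteins lie beside them in the membrane, and ZO-1 and its relatives tether both to the actin cytoskeleton. The PAR complex of atypical protein kinase C, PAR3 and PAR6 marks the apical domain and acts in the assembly of the junctions. In the alveolar and bronchial epithelium these junctions are part of the barrier between airspace and tissue.

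Of the 9 genes, 5 fell in siBAP18 cells, 1 rose, and 3 did not pass the test. *PRKCI*, the atypical kinase, fell to 37.5% of its siCtrl level, *CLDN2* to 55.8% and *TJP1* to 66.7%, with smaller differences in *OCLN* and *CLDN12*. *CLDN1* rose 1.70-fold. *PARD3*, *PARD6B* and *F11R* did not pass. Passing here means an adjusted p under 0.05 in the quasi-likelihood test of edgeR, with the Benjamini-Hochberg method applied over the 20776 genes tested. Of all those genes 49.6% passed, 25.1% lower and 24.5% higher in siBAP18 cells, and since the members were chosen on this contrast nothing is read from 6 of 9. With an absolute log2 fold change over 1 required as well, 8.46% of all genes were called, 3.74% lower and 4.72% higher, and of the members only *PRKCI* was. The median log2 fold change was −0.34 over the 9 members and 0.0010 over all genes tested. Changes are siBAP18 over siCtrl throughout.

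The libraries held 46035635 to 53657450 counts in siCtrl and 42094524 to 56548620 in siBAP18, and every member had between 205 and 18118 counts in each of the 6. The knockdown itself was seen in *C17orf49*, which had 743, 751 and 705 counts in siCtrl replicates 1, 2 and 3 but 120, 137 and 108 in those of siBAP18 (log2 fold change −2.65). The siBAP18 libraries differed more among themselves than the siCtrl libraries did, since the chi-square over its degrees of freedom was at most 4.87 for a siCtrl pair and up to 25.8 for a siBAP18 pair (replicates 2 and 3). Replicate 3 was the lowest of the siBAP18 libraries in 7 of the 9 genes, the others being *F11R* and *CLDN2*. How often that library was the lowest over all genes was not counted, so nothing about the members is read from this. The 6 epithelial markers, among them keratins, were all detected, with 4 lower and 1 higher at the adjusted p, summing to 21150 to 22979 CPM in siCtrl and 16892 to 21068 in siBAP18, where CPM is the count of a gene relative to the scaled library total. Their part in the values below was not tested. The 3 mesenchymal markers summed to 1482 to 1510 CPM in siCtrl and to 1182 to 1194 in siBAP18, where *FN1* was lower (log2 fold change −0.80) while *VIM* (0.43) and *CDH2* (0.24) were higher, all passing the test. The 5 fibroblast markers in the table summed to 12.3 to 13.3 CPM and 9.25 to 10.6, and the 4 endothelial markers to 0.984 to 1.15 CPM and 0.890 to 1.13. Within the endothelial sum *PECAM1* was lower (log2 fold change −1.53) and *CDH5* higher (1.10), and both were called. These calls rest on few counts, 8 to 45 per library for *PECAM1* and 8 to 36 for *CDH5*. Of the immune markers *CD68*, which epithelial lines also express, and *CD14* were in the table, with a sum of 63.5 to 69.6 CPM in siCtrl and 116 to 160 in siBAP18. *CD68* was called as higher (log2 fold change 1.04), and *CD14* did not pass the test (−0.18).

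Short sequences in the 3′ UTRs of these genes are shown first, because an siRNA can lower transcripts that pair with bases 2 to 8 of its guide strand. The word that pairs with those bases was searched for each of the 3 BAP18 siRNAs in the paper. The search covered the 3′ UTRs of protein-coding transcripts in the basic set of GENCODE 29, on the transcript strand. The word for siBAP18#3, ACTCAAC, occurred in 5 of the 9 genes and in 7.5% of the 13740 tested genes with a 3′ UTR. The word for siBAP18#2, AAGATTC, occurred in *PARD6B*, *OCLN* and *CLDN1* and in 12.1% of genes. The word for siBAP18#1, AATCACA, occurred in *CLDN2* and in 15.1% of genes. That of the control siRNA, TGTCACG, was in none of the 9 and in 3.28% of genes, and *CLDN12* held none of the 4 words. The longest 3′ UTR of each of the 9 genes had 1609 to 4433 bases. A word has more places to occur in a longer 3′ UTR, and these shares were not matched for length. The sites of the siBAP18#3 word on GRCh38 are given 5′ to 3′ on the transcript strand, with the word in capitals.
PRKCI, chr3:170305699-170305705, + strand: tcgctcaaaatACTCAACaggggaataggc
PARD3, chr10:34110533-34110539, − strand: actgccttatgACTCAACattaccaataaa
TJP1, chr15:29699452-29699458, − strand: tacccctttatACTCAACccttcttccagc
F11R, chr1:160998532-160998538, − strand: caggaatctgcACTCAACtgcccacctggc
CLDN1, chr3:190308016-190308022, − strand: tgagtaatcatACTCAACtgggggaagggg

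The 5 genes that share this word did not share a direction. Their log2 fold changes were −1.42 in *PRKCI*, 0.06 in *PARD3*, −0.58 in *TJP1*, 0.01 in *F11R* and 0.77 in *CLDN1*. In *PRKCI* and *PARD3* the word was followed by an A, and those 2 genes had the lowest value of the 9 and a value near 0. Over the 13740 genes with a 3′ UTR, the median log2 fold change was −0.25 with the siBAP18#3 word and 0.0050 without it. It was −0.13 with and 0.0037 without the siBAP18#2 word, and −0.14 with and 0.0084 without the siBAP18#1 word. For the word of the control siRNA it was 0.0098 with and −0.0138 without. These medians were not matched for the length of the 3′ UTR either. As it is not stated which siRNA was used, the part of such sites in any single gene was not tested.

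Levels of different genes were compared on the RPKM scale, where the count of a gene is divided by its exon length and by the library total. In siCtrl cells *PARD3*, the scaffold of the PAR complex, was the most abundant of the 9 at 42.9 ± 0.918 RPKM (SD, n = 3). *CLDN2* followed with 15.2 ± 0.164 RPKM and *TJP1* with 12.2 ± 0.241. *F11R* had 6.39 ± 0.110 RPKM, *PRKCI* 4.59 ± 0.0442, *CLDN1* 3.99 ± 0.257 and *OCLN* 3.32 ± 0.286. The lowest were *PARD6B* at 1.34 ± 0.0606 RPKM and *CLDN12* at 1.09 ± 0.105. No neighbours in this order overlapped between their 3 libraries.

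The order was different in siBAP18 cells. *PARD3* was again first at 44.8 ± 3.98 RPKM (SD, n = 3), followed by *CLDN2* at 8.49 ± 0.329, *TJP1* at 8.17 ± 0.636, *CLDN1* at 6.82 ± 1.20 and *F11R* at 6.48 ± 0.0826 RPKM. Among *CLDN2*, *TJP1*, *CLDN1* and *F11R* each gene overlapped its neighbour, so the order of neighbours is not resolved. *CLDN2* did lie above *CLDN1* and *F11R*, and *TJP1* above *F11R*, in all siBAP18 libraries. *OCLN* had 2.60 ± 0.356 RPKM, above *PRKCI* at 1.72 ± 0.196, and *PRKCI* overlapped *PARD6B* at 1.57 ± 0.151. *CLDN12* was again the lowest at 0.857 ± 0.117 RPKM. *CLDN1* lay below *F11R* in every siCtrl library and in siBAP18 replicate 3, and above it in the other siBAP18 libraries.

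**Figure D1:**
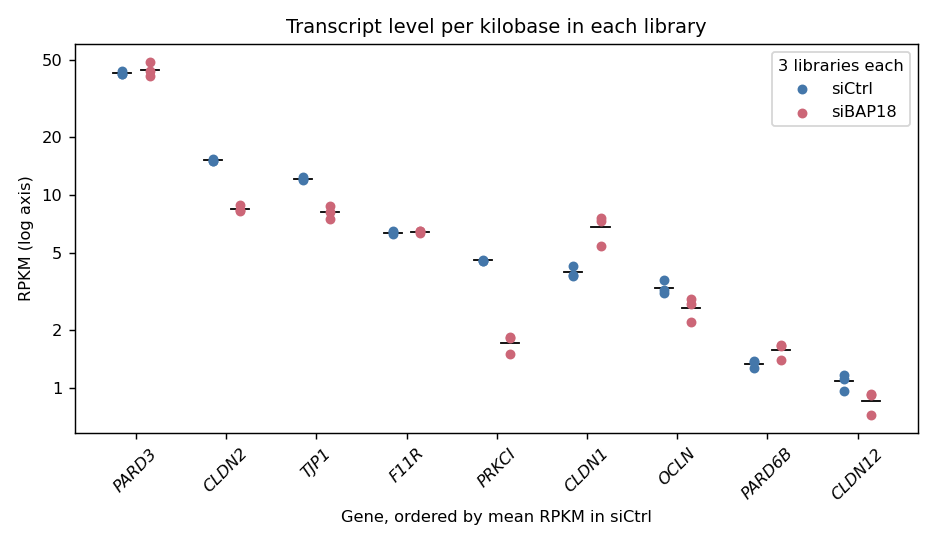
RPKM of the 9 genes on a log axis, ordered by their mean in siCtrl cells, with 1 point per library (3 siCtrl, 3 siBAP18) and a line at each group mean. The siCtrl means run from 42.9 for PARD3 to 1.09 for CLDN12, and the 2 groups lie far apart for PRKCI and CLDN2 and on opposite sides for CLDN1.

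*PRKCI* encodes the iota form of atypical protein kinase C, the catalytic subunit of the PAR complex, and lies at chr3:170222365-170305981 on the + strand with 5841 exon bases. It had 27.3, 26.3 and 27.0 CPM in siCtrl replicates 1, 2 and 3, and 10.7, 10.3 and 9.08 CPM in siBAP18 replicates 1, 2 and 3. All 3 siBAP18 libraries lay below all siCtrl libraries. As these are bulk samples, fewer cells that express a gene and less RNA per cell cannot be told apart. Its mean was 26.9 ± 0.517 CPM in siCtrl and 10.0 ± 0.856 CPM in siBAP18 (SD, n = 3), with a log2 fold change of −1.42 (SE 0.0815). Of all genes tested 1.10% had a lower log2 fold change, but *PRKCI* was chosen on this contrast, so nothing is read from that rank.

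*PARD3* encodes PAR3, the scaffold that recruits the kinase to the forming junction, and lies at chr10:34109560-34815325 on the − strand. It had 277, 283 and 279 CPM in siCtrl and 283, 310 and 280 CPM in siBAP18. The groups overlapped, and the log2 fold change was 0.06 (SE 0.0660). *PARD6B*, at chr20:50731544-50756795 on the + strand, encodes a PAR6 adaptor that binds the kinase and CDC42. It had 6.05, 6.41 and 6.57 CPM in siCtrl and 7.72, 7.64 and 6.86 in siBAP18. The groups did not overlap, with siBAP18 above siCtrl, but the log2 fold change of 0.23 (SE 0.104) did not pass the test, and without siBAP18 replicate 3 it was 0.28 and did pass. Groups that do not overlap were seen in 56.6% of all genes tested, 29% lower and 27.6% higher in siBAP18, and in 7 of the 9 members, 5 lower and 2 higher.

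The proportions of the 3 subunit transcripts differed between the groups. Within each library, *PARD3* had 9.35 ± 0.283 times the RPKM of *PRKCI* in siCtrl and 26.1 ± 2.17 times in siBAP18 (SD, n = 3 each). *PARD6B* had 0.292 ± 0.0157 times the RPKM of *PRKCI* in siCtrl and 0.913 ± 0.0227 times in siBAP18. The other atypical kinase, *PRKCZ*, rose slightly, from 20.3 ± 0.930 to 24.0 ± 2.24 CPM (log2 fold change 0.24, SE 0.0800, edgeR adjusted p = 0.0153). The ratio of *PRKCI* to *PRKCZ* by RPKM was 1.80, 1.75 and 1.65 in siCtrl and 0.571, 0.625 and 0.458 in siBAP18. *PRKCI* was thus the more abundant of the 2 kinase transcripts in every siCtrl library and the less abundant in every siBAP18 library. *PRKCZ* no longer passed the test when siCtrl replicate 1, siCtrl replicate 2 or siBAP18 replicate 1 was left out, with an adjusted p from edgeR of 0.0787, 0.0800 and 0.0667.

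The remaining PAR genes did not follow *PRKCI*. Of the 6 in the wider list, 3 were higher at an adjusted p under 0.05 and the other 3 did not pass. The higher ones were *PRKCZ*, *PARD3B*, a paralog of PAR3 (15.2 to 18.3 CPM, log2 fold change 0.27, SE 0.0829), and *PARD6G*, a paralog of PAR6 (1.35 to 2.16 CPM, log2 fold change 0.68, SE 0.190). The adjusted p from edgeR was 0.00910 for *PARD3B* and 0.00415 for *PARD6G*. *PARD6A* overlapped between the groups, with a log2 fold change of 0.22 (SE 0.232). *PARD3B* no longer passed without siBAP18 replicate 2, where its adjusted p was 0.0523, nor with limma on RPKM.

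**Figure D2:**
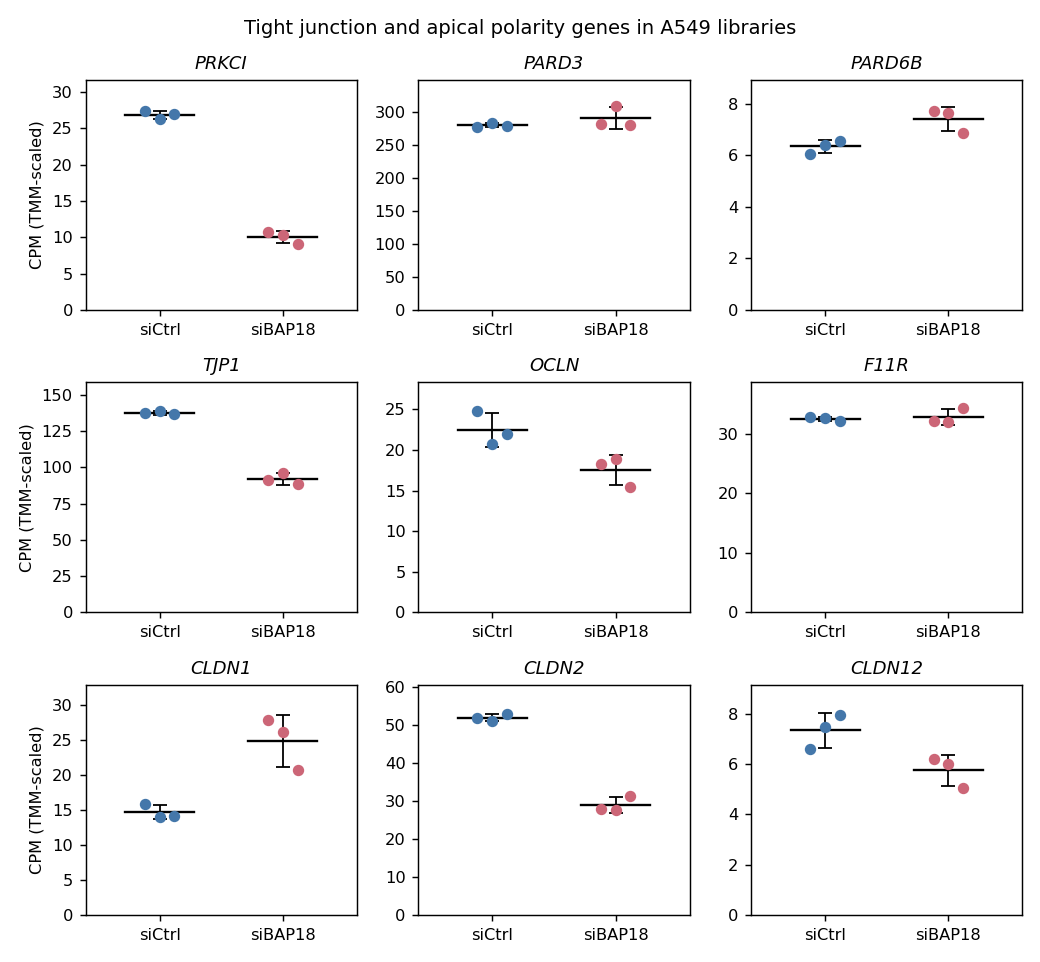
CPM of each of the 9 genes in the 3 siCtrl and 3 siBAP18 libraries, 1 panel a gene with an axis from 0, points for libraries in the order of replicates 1 to 3, and lines and bars for mean ± SD. PRKCI, TJP1, OCLN, CLDN2 and CLDN12 are lower in every siBAP18 library than in every siCtrl library, PARD6B and CLDN1 are higher, and PARD3 and F11R overlap.

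*TJP1* encodes ZO-1, the plaque scaffold that binds claudins, occludin and actin, and lies at chr15:29699367-29968865 on the − strand with 11265 exon bases. It had 137, 139 and 137 CPM in siCtrl and 91.0, 96.2 and 88.3 CPM in siBAP18. The groups were well apart, and the spread within each was small. Its mean was 138 ± 1.26 CPM in siCtrl and 91.8 ± 4.01 CPM in siBAP18 (SD, n = 3), with a log2 fold change of −0.58 (SE 0.0651). Its paralog *TJP3* (ZO-3) fell, from 29.5 ± 2.10 to 20.0 ± 2.16 CPM (log2 fold change −0.56, SE 0.0827, edgeR adjusted p = 3.12e-06).

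*OCLN* encodes occludin, a tetraspan strand protein, and lies at chr5:69492292-69558104 on the + strand. It had 24.8, 20.7 and 21.9 CPM in siCtrl and 18.2, 18.9 and 15.5 CPM in siBAP18. The groups did not overlap, but the highest siBAP18 library came close to the lowest siCtrl library. The log2 fold change was −0.36 (SE 0.0868), or 78.2% of the siCtrl level, and with limma on log2(RPKM + 0.1) it no longer passed the test. *F11R* encodes JAM-A, an immunoglobulin-like adhesion protein that binds PAR3, and lies at chr1:160995211-161021348 on the − strand. It had 32.8, 32.6 and 32.0 CPM in siCtrl and 32.1, 32.0 and 34.3 in siBAP18. The groups overlapped, and the log2 fold change was 0.01 (SE 0.0692). *F11R* shares 1853 exon bases with *RP11-544M22.13* on the same strand, so reads there may be split between them. Among their relatives *MARVELD3*, another MARVEL-domain protein of the junction, fell (log2 fold change −0.33, SE 0.110, edgeR adjusted p = 0.0149). *MARVELD2* (tricellulin) had a log2 fold change of −0.20 (SE 0.136) and *JAM3* one of −0.40 (SE 0.187), and neither passed the test. *JAM2* was at 0 to 0.0856 CPM and was not tested.

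The claudins moved in opposite directions. *CLDN2* encodes a claudin that forms cation-selective pores and lies at chrX:106900164-106930861 on the + strand. It had 51.8, 50.9 and 52.7 CPM in siCtrl and 27.9, 27.5 and 31.4 CPM in siBAP18. All siBAP18 libraries were far below the siCtrl libraries, with a log2 fold change of −0.84 (SE 0.0714). *CLDN1* encodes a barrier-forming claudin and lies at chr3:190305701-190322475 on the − strand. It had 15.8, 14.0 and 14.1 CPM in siCtrl and 27.8, 26.1 and 20.7 CPM in siBAP18. The groups did not overlap, and the mean was 14.7 ± 1.03 CPM in siCtrl and 24.9 ± 3.71 CPM in siBAP18 (SD, n = 3), with a log2 fold change of 0.77 (SE 0.0933). The rise was smallest in siBAP18 replicate 3, at 76.8% of the mean of the other siBAP18 libraries, and without that library the log2 fold change was 0.88.

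*CLDN12*, a claudin that lacks the PDZ-binding end of most others, lies at chr7:90383721-90513402 on the + strand. It had 6.58, 7.48 and 7.94 CPM in siCtrl and 6.21, 6.01 and 5.06 CPM in siBAP18. The highest siBAP18 library lay just under the lowest siCtrl library. Its log2 fold change of −0.34 (SE 0.113) passed the test, but not without siCtrl replicate 3 (−0.28) or siBAP18 replicate 3 (−0.26). *CLDN12* shares exon bases with 3 genes on the same strand, none of which passed the test. It shares 371 with *CTB-13L3.1* (log2 fold change −0.23), 347 with *GTPBP10* (−0.06) and 201 with *CDK14* (0.50). The span of *CTB-13L3.1* holds 92.5% of the exon bases of *CLDN12*.

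*CLDN2* lies wholly within the span of another gene. All its 3410 exon bases, 100% of them, are inside *MORC4* on the opposite strand, with 0 bases shared between the exons of the 2. *RIPPLY1*, also on the opposite strand, shares 341 exon bases with *CLDN2*, 10% of them, and had 6 to 16 counts per library. *MORC4* had 16712 to 19441 counts in siCtrl and 6178 to 11021 in siBAP18, a log2 fold change of −1.07 (SE 0.0735). *CLDN2* counts were 14.2%, 14.1% and 14.7% of *MORC4* counts in siCtrl, and 16.1%, 14.6% and 20.6% in siBAP18. The libraries were made to keep strand, but it is not stated that the counting used it, so reads from introns of *MORC4* may be among those of *CLDN2*. Their part in the fall of *CLDN2* was not tested.

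The makeup of the claudin transcripts differed between the groups. Claudins were 19 of the genes in the table, and their RPKM summed to 30.8 ± 0.464 in siCtrl and 27.3 ± 0.773 in siBAP18 (SD, n = 3 each). *CLDN2* made up 48.2%, 49.8% and 49.9% of that sum in siCtrl and 29.4%, 30.6% and 33.4% in siBAP18. *CLDN1* made up 13.7%, 12.8% and 12.4% in siCtrl and 27.3%, 27.1% and 20.6% in siBAP18. The ratio of *CLDN1* to *CLDN2* by RPKM was 0.285, 0.256 and 0.249 in siCtrl and 0.927, 0.884 and 0.615 in siBAP18. *CLDN2* remained the more abundant of the pair in each of the 6 libraries.

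**Figure D3:**
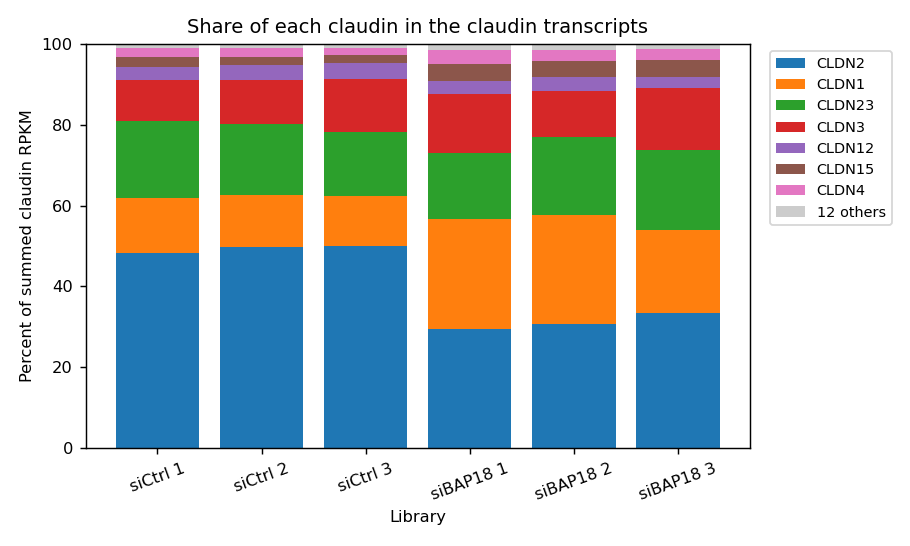
Share of each claudin in the summed RPKM of the 19 claudins in the table, in percent, 1 bar per library. CLDN2 takes 48.2 to 49.9% in the siCtrl libraries and 29.4 to 33.4% in the siBAP18 libraries, while CLDN1 goes from 12.4 to 13.7% to 20.6 to 27.3%.

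Of the 16 claudins in the table that are not among the 9 genes, 5 passed the filter on low counts, of which 1 rose and 4 did not pass the test. The one that rose was *CLDN15*, a pore-forming claudin, from 1.98 ± 0.385 to 3.31 ± 0.180 CPM (log2 fold change 0.73, SE 0.163, edgeR adjusted p = 0.000561). *CLDN23* and *CLDN3*, which with *CLDN2* and *CLDN1* were the 4 largest by RPKM in both groups, had log2 fold changes of −0.11 (SE 0.0953) and 0.08 (SE 0.141). *CLDN4* had 0.35 (SE 0.153) and the scarce *CLDN7* 0.43 (SE 0.453), and neither passed. *CLDN4* did pass without siCtrl replicate 1, siBAP18 replicate 2 or siBAP18 replicate 3, and with a replicate block, at an adjusted p from edgeR of 0.0415, 0.0397, 0.0350 and 0.0386.

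Promoter sequence was available from RefSeq (GRCh38.p14, 250 bases before to 50 after the start site) for 6 of the 9 genes, with 11 promoters. The E-box is shown because ZEB2, a repressor that binds it, was among the regulators that rose, as given further on. Its paralog *ZEB1* did not pass the test, and the part of either in these genes was not tested. The E-box word CAGGTG was searched on both strands. It was in 3 of the 11 promoters, both of *OCLN* and 1 of *TJP1*, and in 20.6% of all 35116 promoters. The nearest match to the start site upstream is given for each of these promoters, on the gene's strand, with the word in capitals.
OCLN, first promoter, chr5:69492503-69492530: catccgagtttCAGGTGaattggtcacc
OCLN, second promoter, chr5:69492646-69492673: ctaggacgcagCAGGTGggactcgcggc
TJP1, chr15:29969121-29969148: cggccggcgcgCAGGTGgcccggcctcg

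Other words were found in single members. The TEAD word GGAATG was in the *PRKCI* promoter, and in 14% of all promoters. The AP-1 word TGANTCA was in a promoter of *CLDN2* as TGATTCA, and in 7.71% of all. The TCF/LEF word, CTTTG followed by 2 letters that are each A or T, was in 1 promoter of *TJP1* and in 13.8% of all. A match says only that these letters are present.

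The wider list of tight junction and polarity genes held 76 genes, of which 71 were in the table and 55 were tested. At the adjusted p of 0.05, 13 passed as lower and 14 as higher, together 49.1%, against 49.6% of all genes. Called with the fold change threshold as well were 2 genes, 3.64% against 8.46% of all genes, both higher. One was *MAGI2*, a membrane-associated scaffold, from 0.783 ± 0.219 to 2.89 ± 0.241 CPM (log2 fold change 1.89, SE 0.204, edgeR adjusted p = 2.61e-08). The other was *AMOTL2*, an angiomotin that binds junction scaffolds and YAP, from 80.8 ± 0.531 to 162 ± 12.8 CPM (log2 fold change 1.01, SE 0.0692, edgeR adjusted p = 9.77e-12). *AMOTL2* lay at the threshold, and with siCtrl replicate 1, siCtrl replicate 3 or siBAP18 replicate 1 left out (log2 fold change 0.94 without the last) it was not called, which left 1 called gene. The median log2 fold change of the 55 was −0.01.

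Within that list, genes were also counted by complex. The complexes and the genes named in them were chosen after the values were seen, the difference between complexes was not tested, and of all genes 25.1% passed as lower and 24.5% as higher. Of 8 tested genes of the Crumbs complex, the second apical complex, 6 were lower and 1 was higher. *MPP5*, which encodes the scaffold PALS1, fell from 40.3 ± 1.13 to 21.7 ± 1.78 CPM (log2 fold change −0.89, SE 0.0748), and *LIN7A*, a partner of it, had −0.96 (SE 0.212) at 1.81 CPM in siCtrl. Of 8 genes of the basolateral Scribble group, 2 were lower and 2 higher, among them *SCRIB* itself with a log2 fold change of 0.76 (SE 0.0654) and *DLG1* with −0.51 (SE 0.0784). Of 16 plaque genes other than *TJP1*, 4 were lower and 5 higher, with *CGN*, which encodes cingulin, at −0.57 (SE 0.0681). Of 6 other membrane proteins 1 was lower and 1 higher, and of 6 polarity kinases and FERM proteins 1 was higher.

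**Figure D4:**
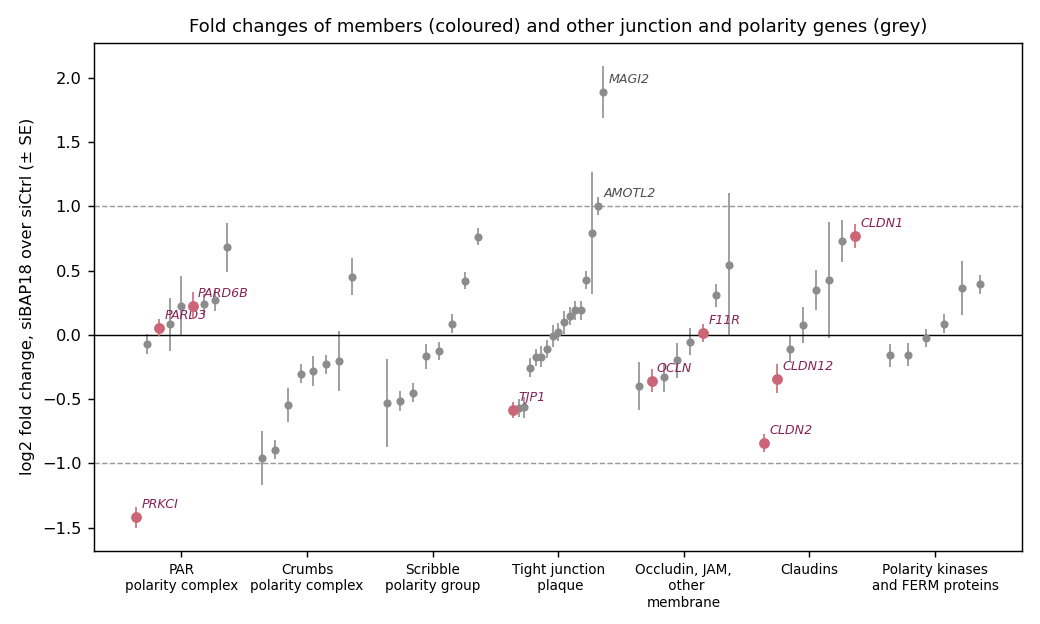
log2 fold change ± SE of siBAP18 over siCtrl for the 9 genes (coloured) and the other tested junction and polarity genes (grey), ordered within complexes, with dashed lines at an absolute value of 1. PRKCI is the lowest point at −1.42 and MAGI2 the highest at 1.89, and the Crumbs complex is mostly below 0.

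Neighbouring junctions were compared by the same counts. Of 18 tested adherens junction genes, 7 passed the test as lower and 5 as higher, together 66.7% against 49.6% of all genes, and 3 were called, 16.7% against 8.46%. The difference from all genes was not tested. *CDH1*, which encodes E-cadherin, fell from 63.9 ± 1.27 to 25.5 ± 0.202 CPM (log2 fold change −1.32, SE 0.0678, edgeR adjusted p = 3.81e-14). *NECTIN4*, a nectin, rose from 0.796 ± 0.207 to 7.22 ± 0.877 CPM (log2 fold change 3.20, SE 0.172, edgeR adjusted p = 9.64e-14). *CTNND2*, a delta catenin, was called at a mean of 0.200 CPM in siCtrl and 0.460 in siBAP18 (log2 fold change 1.18, SE 0.436). Its adjusted p from edgeR was 0.0267, but the gene was not called without siCtrl replicate 2, siCtrl replicate 3 or siBAP18 replicate 1. The more abundant catenins *CTNND1* (log2 fold change −0.95, SE 0.0669), *JUP* (−0.85, SE 0.0722) and *CTNNB1* (−0.40, SE 0.0736) passed as lower. *CTNNA1* (−0.04, SE 0.0635) did not pass. Of 8 tested desmosome genes 4 were lower and 1 higher, together 62.5%, and the log2 fold changes lay between −0.999 and 0.81, inside the fold change threshold. The median log2 fold change was −0.04 for adherens junction genes, −0.30 for desmosome genes and −0.01 for the wider tight junction list. It was −0.34 for the 9 members, but those were chosen on this contrast, so nothing is read from that value beside the others.

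Of 20 tested regulators of junction genes, 7 were lower and 4 higher, together 55%, and 2 were called, 10% against 8.46% of all genes. *ZEB2* rose from 2.94 ± 0.460 to 15.4 ± 2.52 CPM (log2 fold change 2.40, SE 0.127, edgeR adjusted p = 8.31e-14). Its paralog *ZEB1* had 23.9 ± 1.67 CPM in siCtrl and 21.0 ± 0.966 in siBAP18. With a log2 fold change of −0.18 (SE 0.0768), *ZEB1* did not pass the test. *KLF5*, an epithelial transcription factor, fell from 70.9 ± 2.90 to 34.2 ± 1.00 CPM (log2 fold change −1.05, SE 0.0682, edgeR adjusted p = 3.12e-12).

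The genes most like *PRKCI* across the 6 libraries, by Pearson's r of log2 CPM among 14221 genes, were *RPE* (r = 0.9996), *PON2* and *SCN9A*, with log2 fold changes of −0.86, −0.90 and −1.18. Such likeness was common, with 472 genes over 0.99. For *CLDN1* they were *NAA20* (r = 0.998), *LINC00843* and *STXBP6*, with log2 fold changes of 0.32, 1.07 and 1.01, and 26 genes were over 0.99. These values describe libraries that fall into 2 groups, and they share library depth and treatment.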

How the data were processed

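RNA of 6 A549 cultures, 3 siCtrl and 3 siBAP18, was sequenced as paired-end reads from strand-specific poly(A) libraries. The authors deposited raw counts per gene, and RPKM computed from them with the listed exon length and the column's total, which was checked (relative deviation under 1e-06). The aligner, the counting program and its use of strand are not given in the sources used here. The submitters' processing notes name the builds hg38 and GRCm38, and the exon positions in the table are those of GRCh38. Samples were grouped by their titles.

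For the counts, edgeR 4.0.16 was used in R 4.3.3. Its filterByExpr left 20776 of 35474 genes, which were scaled by TMM and compared by the quasi-likelihood test, with p-values adjusted by Benjamini-Hochberg. The SE is the log2 fold change over the square root of F. A call needed an adjusted p under 0.05 together with a log2 fold change over 1 in absolute value. The steps were tested on simulated data, where 200 of 200 changed genes among 20477 were recovered with 0 false calls. Recovery of differences as small as those of most members was not tested. The members and lists were chosen with earlier results of these data known, so the members carry no p-value. Named beside them are called genes of the wider list, paralogs of members (1 item is not reported here), up to 4 called genes of each neighbouring list, *C17orf49*, and the 3 genes most like the lowest and the highest member among genes whose average log2 CPM was 1 or more. Names outside this rule, chosen after their values were seen, are *MORC4*, *RIPPLY1*, *MARVELD3*, *CD68*, *CD14*, *FN1*, *VIM*, *CDH2*, *PECAM1*, *CDH5*, *GTPBP10*, *CTB-13L3.1*, *CDK14*, *RP11-544M22.13*, *ZEB1*, *CTNND1*, *JUP*, *CTNNB1*, *CTNNA1*, and in the complexes *MPP5*, *LIN7A*, *SCRIB*, *DLG1* and *CGN*.

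Alternatives were upper-quartile scaling, the size factors of DESeq2, library totals, a minimum of 10 counts per library, no filter, the Wald test of DESeq2 1.42.0, limma 3.58.1 on log2(RPKM + 1) with and without a mean RPKM of at least 0.5 and on log2(RPKM + 0.1), a replicate block, each library left out, and the adjusted p alone. Words and motifs were searched with Python 3.11.15 and pandas 2.3.3 in GENCODE 29 and RefSeq sequences, and plots were drawn with matplotlib 3.10.9.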

Additional observations from a re-analysis of the deposited data

How the results depend on the processing

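*PRKCI*, *TJP1*, *CLDN1* and *CLDN2* kept their direction and their side of the test in all 16 alternatives run, with log2 fold changes from −1.47 to −1.04, −0.62 to −0.53, 0.64 to 0.88 and −0.90 to −0.77. *OCLN* no longer passed with limma on log2(RPKM + 0.1) (−0.34) or on log2(RPKM + 1) without a filter (−0.26), and lay between −0.41 and −0.28 with each library left out. *CLDN12* no longer passed with limma on log2(RPKM + 1) with or without the filter (−0.17 in both) or on log2(RPKM + 0.1) (−0.31), and its values with each library left out ran from −0.42 to −0.26. *PARD6B* passed when siBAP18 replicate 3 was left out, within a range of 0.19 to 0.28. A value below 0 of *F11R*, −0.02, was seen with 1 library left out and did not pass. The cause of these differences was not tested. The log2(value + pseudocount) scale understates changes of low genes.

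Of all genes, 1758 were called (981 higher, 777 lower). The number was 348 (215, 133) with limma on log2(RPKM + 1), 344 (211, 133) without its filter, 899 (471, 428) on log2(RPKM + 0.1), and 10305 (5089, 5216) at the adjusted p alone. The genes called as higher in siBAP18 numbered 605, beside 981, with at least 10 counts in every library, where fewer genes were tested. Leaving out a library gave 1714 to 1934 (957 to 1067 higher, 757 to 927 lower). Of the other tight junction and polarity genes 2 were called, both higher. That was 1 without a filter, 0 with limma on log2(RPKM + 1) either way, 1 on log2(RPKM + 0.1), 27 (14 higher, 13 lower) at the adjusted p alone, and 1 to 3 (1 to 2 higher, 0 to 1 lower) with a library left out. Of adherens junction and desmosome genes 3 were called (2 higher, 1 lower). The adjusted p alone gave 17 (6 higher, 11 lower). With at least 10 counts, and with limma in its 3 forms, 1 was higher. No filter gave 2 lower. With a library left out the total was 2 to 4, with 1 to 2 higher and 1 to 2 lower.

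Between the siCtrl and siBAP18 libraries of replicates 1, 2 and 3, Pearson r of residuals across genes was 0.0606, 0.185 and 0.0805. Libraries of unlike replicate number were not compared, so whether the numbers mark pairs was not tested. With the replicate block 2 adherens junction and desmosome genes were lower, *PRKCI* had −1.42, *CLDN1* 0.76 and *CLDN2* −0.84, no member changed its call, and 1741 genes were called. The number of libraries, 3 per group, limits how small a difference can be shown, most for *CLDN12* and *PARD6B*, which had 205 to 446 counts.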
